A study of Mus musculus with 2 samples.

Results

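The 10 genes described here encode elastin, the fibrillins, 3 short fibulins, 2 latent TGF-beta binding proteins, emilin-1 and a microfibril-associated protein. They were taken by gene symbol from the 19674 gene rows of the count table, and all 10 were found. The list was drawn up with earlier results of these data known, so it was not blind to these libraries. Transcripts were counted by bulk RNA sequencing of mouse skin fibroblasts, a wild-type line called MDFB in the labels. The vehicle group held 1 library and the IL-17A group held 1 library, both wild type and both with batch label 1. Dose, length of treatment, the age of the source animals and whether the line is a single clone were not stated in the labels. The vehicle library held 24427027 counts and the IL-17A library 23559416, and the 10 genes took 0.504% and 0.433% of them. A gene was called measured if its counts in both libraries summed to 50 or more, and 13534 genes did so, all 10 members among them.

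Elastic fibres give skin and vessels their recoil. They are built from a core of crosslinked elastin laid down on a scaffold of microfibrils, whose backbone is fibrillin, and fibulins and lysyl oxidases help to place and crosslink the elastin. Latent TGF-beta binding proteins tie the latent growth factor to the microfibrils, so that the scaffold also stores signalling molecules. In the dermis these proteins are made mainly by fibroblasts. IL-17A is an inflammatory cytokine of T cells and other lymphocytes, and its receptor is carried by fibroblasts.

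The elastin core gene and several microfibril genes were lower in the IL-17A library, whereas emilin-1 and Ltbp2 were higher, so that the make-up of the group changed more than its sum. The summed level of the 10 genes was 4921 CPM with vehicle and 4438 CPM with IL-17A, 1.11-fold lower, where CPM is the count scaled to a TMM-adjusted library size. At a limit of 2-fold, 4 of 10 members were lower (Eln, Fbn2, Efemp1 and Ltbp1) and 1 was higher (Emilin1). Of all measured genes, 3.69% were at least 2-fold lower and 5.19% at least 2-fold higher. Among the 7283 genes with at least the 1110 summed counts of the least abundant member, Efemp1, these shares were 1.5% and 4.01%. The log2 ratio of IL-17A over vehicle was below 0 for 8 of the 10 members with a median of -0.57, against 49.7% below 0 and a median of 0.00 over all measured genes. With 1 library per group the differences have no replicate check and no test. The 95% intervals given below are exact intervals of counting error, which leave out variation between cultures.

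**Figure D1:**
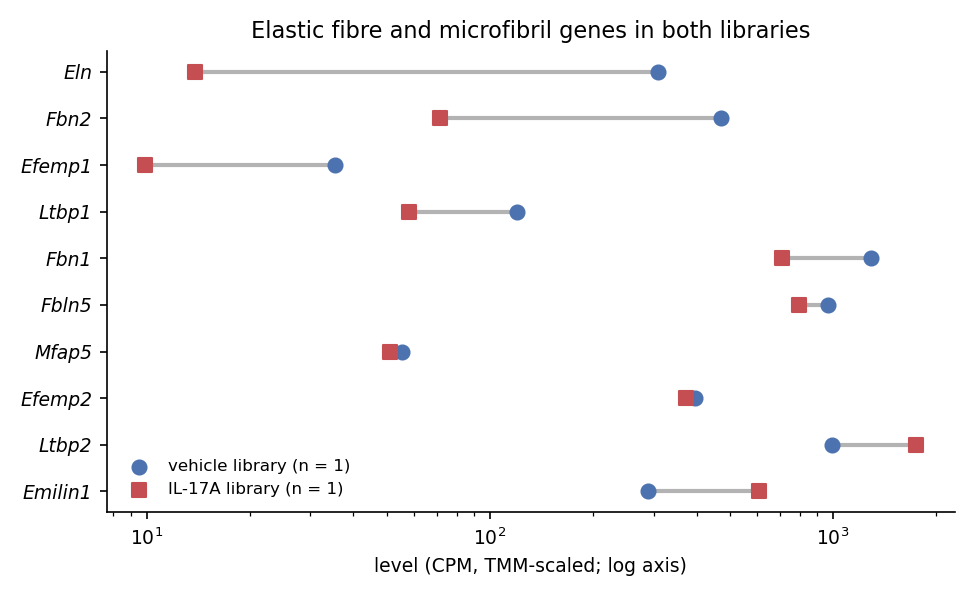
Level of each of the 10 genes in CPM (log axis) in the vehicle library (circles) and the IL-17A library (squares), 1 library each, ordered by the ratio. Eln spans the widest gap, from 308 to 13.9 CPM, Efemp2 and Mfap5 nearly coincide, and Ltbp2 and Emilin1 are the pair with the IL-17A library on the right.

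Eln encodes tropoelastin, the soluble precursor of the elastic core. It was counted 7699 times with vehicle and 319 times with IL-17A, levels of 308 and 13.9 CPM. The IL-17A level was 4.50% of the vehicle level, a fold of 22.2 lower (interval 19.9 to 24.9), and 8 of the 13534 measured genes had a lower ratio. RefSeq places it (GRCm38.p6, also named mm10) on chromosome 5 from 134702595 to 134747368. Per count of Eln, the vehicle library held 4.19 counts of Fbn1 and 13.0 of Lox, the elastin-crosslinking lysyl oxidase, and the IL-17A library held 51.3 and 329. These ratios within a library do not depend on the scaling between libraries.

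**Figure D2:**
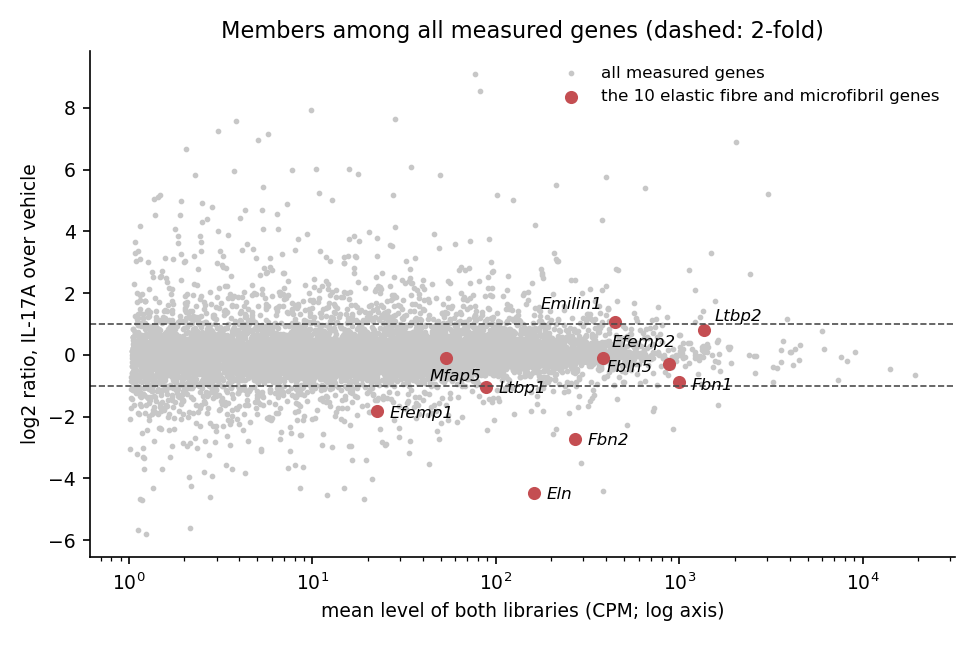
Log2 ratio of IL-17A over vehicle against the mean level of both libraries (CPM, log axis) for all 13534 measured genes (grey) and the 10 members (red), with dashed lines at 2-fold. Eln at -4.47 and Fbn2 at -2.72 lie below most genes of their abundance, and 5 of the 10 lie between the lines.

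A feature that some of these transcripts share is the seed match of miR-29, a microRNA family known to repress elastin and fibrillin-1. It was looked up after the values were seen, and mature microRNAs were not measured here. The 3 family members share 1 seed, shown in capitals (bases 2 to 8, RefSeq, GRCm38.p6):
miR-29a-3p: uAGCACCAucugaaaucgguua
miR-29b-3p: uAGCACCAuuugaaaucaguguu
miR-29c-3p: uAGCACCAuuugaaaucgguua

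Matches to the seed, TGGTGCT, were counted in the GENCODE M21 3' UTR of each gene, from its coding transcript with the longest 3' UTR. Eln held 3 matches in 1188 bases, Fbn1 held 2 in 992 and Mfap5 held 2 in 859. Fbn2 held 1 in 1635, and the other 6 members held 0. Of 11949 measured genes with a 3' UTR, 16.2% had at least 1 match and 2.62% at least 2, against 4 and 3 of the 10 members. Because miR-29 was picked as a known repressor of elastin and fibrillin-1, matches in Eln and Fbn1 were likely beforehand. The shares are therefore no test. The sites of the 3 genes with several are shown 5' to 3', match in capitals, because they are a sequence feature that Eln shares with other members:
Eln site 1: ctcatcaacgtTGGTGCTactgcttggtgg
Eln site 2: ccaagggaaatTGGTGCTacatgttggtgc
Eln site 3: gtgctacatgtTGGTGCTtcttctttgtgg
Fbn1 site 1: tgttgtctgttTGGTGCTagtaaattctca
Fbn1 site 2: agggtttgtaaTGGTGCTtattaagaccaa
Mfap5 site 1: ctaattttcacTGGTGCTggtaacgtttgt
Mfap5 site 2: ttttttttaaaTGGTGCTatgaattgatct

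The matches begin at bases 38, 285 and 298 of the Eln 3' UTR, so sites 2 and 3 lie close together and their printed stretches overlap. Among the genes with a match, Eln stood at -4.47 on the log2 scale, Fbn2 at -2.72, Fbn1 at -0.86 and Mfap5 at -0.12. Members with 0 matches ran from -1.83 (Efemp1) to 1.07 (Emilin1). The part of miR-29 in these ratios was not tested. The pentamer ATTTA of AU-rich elements, which can shorten the life of a transcript, was also counted. It occurred 7 times in the 3' UTR of Fbln5, 5 in Fbn2, 3 in Efemp1, 2 in Fbn1, and 1 time each in Eln, Efemp2 and Ltbp1. Ltbp2, Emilin1 and Mfap5 held 0. Over the measured genes, 71.5% had at least 1, as had 7 of the 10 members.

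Fibrillins form the microfibril backbone. Fbn1, the main fibrillin after birth, had 32285 and 16350 counts, levels of 1291 and 711 CPM. It was 1.82-fold lower (interval 1.78 to 1.85), inside the 2-fold limit. Fbn2, a fibrillin made mainly in development, had 11788 and 1649 counts, 471 and 71.7 CPM. It was 6.58-fold lower (interval 6.25 to 6.93), and 61 measured genes had a lower ratio. Fbn2 thus made up 26.7% of fibrillin counts with vehicle (interval 26.3 to 27.2) and 9.16% with IL-17A (interval 8.74 to 9.59), a shift that no scaling alters. Fbn1 lies on chromosome 2 from 125300594 to 125506485, and Fbn2 on chromosome 18 from 58008623 to 58210572.

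Short fibulins bind tropoelastin or its crosslinking enzymes and guide elastic fibre assembly. Fbln5, fibulin-5, an integrin ligand needed for elastic fibres in skin, had 24147 and 18313 counts, 966 and 796 CPM, a fold of 1.21 lower (interval 1.19 to 1.24). Efemp2, fibulin-4, which brings lysyl oxidase to elastin, had 9927 and 8603 counts, 397 and 374 CPM, a fold of 1.06 lower (interval 1.03 to 1.09). Both differed little beside the fold of Eln. Efemp1, fibulin-3, had 882 and 228 counts, 35.3 and 9.91 CPM, and was 3.56-fold lower (interval 3.07 to 4.14).

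The short fibulins were therefore uneven, with the least abundant of the 3 the furthest from a ratio of 1. Efemp1 took 2.52% of short fibulin counts with vehicle and 0.840% with IL-17A, while Fbln5 took 69.1% and 67.5%. Fbln5 lies on chromosome 12 from 101746565 to 101819119, Efemp2 on chromosome 19 from 5473946 to 5482520 and Efemp1 on chromosome 11 from 28853154 to 28926743.

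Promoter windows, the 250 bases before a RefSeq start site, were held in the reference table for 7 of the 10 members, with 11 windows in all. Eln, Fbn2 and Mfap5 had none. The motifs searched on both strands were AP-1 (TGANTCA), C/EBP (TTGCNNAA), the SMAD element (GTCTAGAC), the GC box (GGGCGG), the TATA box (TATAAA) and the NF-kB consensus. NF-kB and C/EBP are transcription factors through which IL-17A is known to act. Efemp1 had the only member window with AP-1 and the only one with C/EBP, motifs held by 6.75% and 9.56% of all 32851 windows and by 4.53% and 7.28% of those of measured genes. A GC box was in 7 of the 11 windows, in 5 genes, against 32.7% of all windows and 58.2% of those of measured genes. Of the 3 Efemp2 windows, 2 overlap for most of their length and hold the same 5 GC boxes, so these were counted in both. No member window held the SMAD element, the TATA box or the NF-kB consensus, found in 0.167%, 12.4% and 7.25% of all windows and in 0.206%, 6.44% and 9.01% of those of measured genes.

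The upstream sequences of the members that were at least 2-fold lower and had a window are shown 5' to 3', on the plus strand of GRCm38.p6, without bases that fall in a GENCODE exon or past the outermost RefSeq start of the gene. Capitals mark motif matches. In Efemp1 the C/EBP match begins at -218 and the AP-1 match at -154 from the start site. The GC box at -29 lies past the printed stretch. These positions are counted from the start site of the window, which lies inside the gene span given for Efemp1 and for Ltbp1. The printed stretches end just before those spans, at -52 in Efemp1 and -50 in Ltbp1. Ltbp1, shown at the first of its 2 start sites, had no match, so its sequence is in lower case:
Efemp1, chr11:28852955-28853153: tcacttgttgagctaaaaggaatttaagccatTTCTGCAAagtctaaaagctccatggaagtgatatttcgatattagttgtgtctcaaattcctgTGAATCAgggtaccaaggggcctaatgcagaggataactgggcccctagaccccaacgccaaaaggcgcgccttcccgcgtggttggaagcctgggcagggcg
Ltbp1, chr17:75005279-75005479: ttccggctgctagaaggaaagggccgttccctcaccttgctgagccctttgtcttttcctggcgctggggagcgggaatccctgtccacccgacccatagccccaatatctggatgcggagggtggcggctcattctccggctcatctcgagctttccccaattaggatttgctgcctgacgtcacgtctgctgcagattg

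Latent TGF-beta binding proteins went opposite ways. Ltbp1, which carries latent TGF-beta into the matrix, had 2994 and 1335 counts, 120 and 58.0 CPM. It was 2.06-fold lower, with an interval of 1.93 to 2.20 that spans the 2-fold limit. Ltbp2, which does not bind latent TGF-beta and sits on microfibrils, had 24753 and 40188 counts, 990 and 1746 CPM. It was 1.76-fold higher (interval 1.74 to 1.79), inside the limit. Ltbp1 lies on chromosome 17 from 75005480 to 75392512 and Ltbp2 on chromosome 12 from 84783212 to 84876558.

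The remaining family members, Ltbp3 and Ltbp4, stood at -0.07 (interval -0.12 to -0.01) and -0.64 (interval -0.74 to -0.54) on the log2 scale. Among the counts of all 4, Ltbp2 took 69.8% with vehicle and 84.4% with IL-17A, and each of the other 3 took a lower share with IL-17A. Ltbp1 went from 8.44% to 2.80%.

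**Figure D3:**
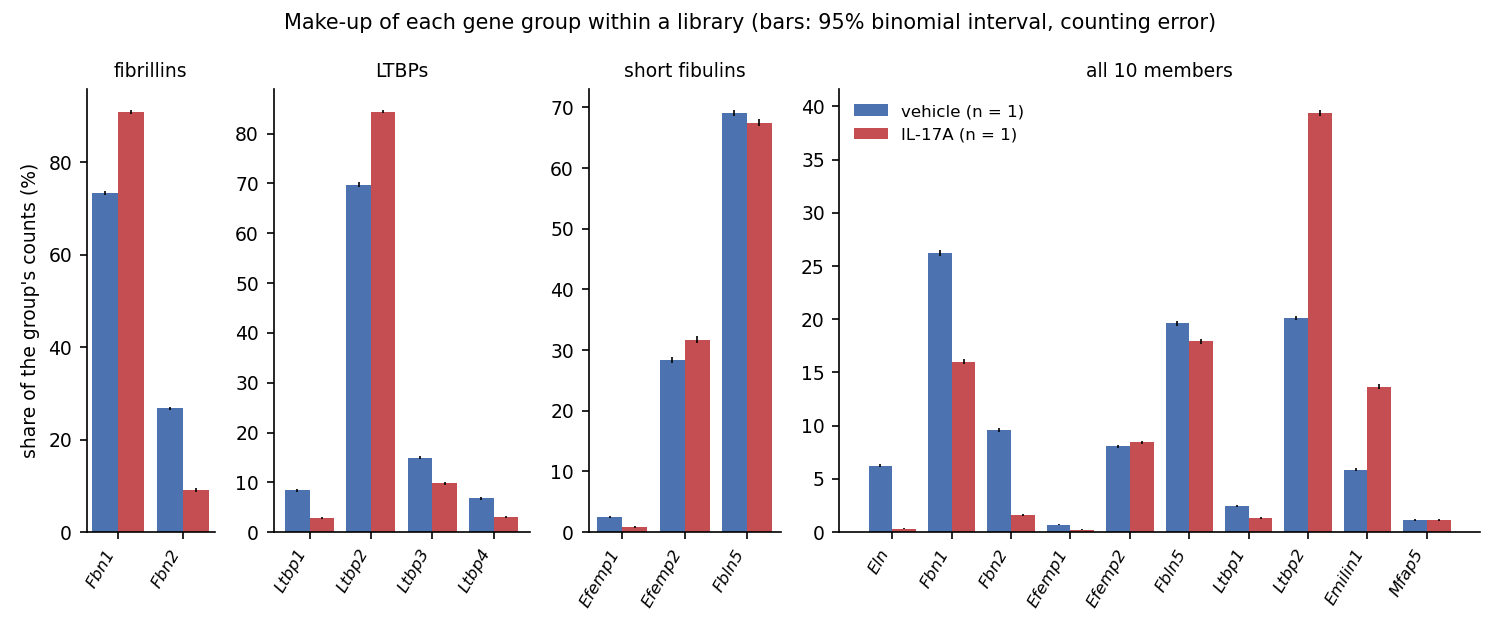
Share of counts (%) that each gene takes within its group in the vehicle library (blue) and the IL-17A library (red), 1 library each, with exact 95% binomial intervals for counting error. Fbn2 goes from 26.7% to 9.16% of fibrillin counts, and Ltbp2 from 20.1% to 39.4% of the counts of all 10 members.

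Emilin1 and Mfap5 complete the group. Emilin1, a glycoprotein at the border of elastin and microfibrils that also restrains TGF-beta processing, had 7207 and 13966 counts, 288 and 607 CPM. It was 2.11-fold higher (interval 2.05 to 2.17), the highest ratio of the 10, with 637 measured genes above it. Mfap5, a microfibril protein known as MAGP-2, had 1388 and 1178 counts, 55.5 and 51.2 CPM, a fold of 1.08 lower (interval 1.00 to 1.17). Emilin1 lies on chromosome 5 from 30913387 to 30921279, and Mfap5 on chromosome 6 from 122513584 to 122529290. For each count of Eln there were 0.936 counts of Emilin1 with vehicle and 43.8 with IL-17A.

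In the order of the ratios, the intervals of Efemp2 (-0.13 to -0.04 on the log2 scale) and Mfap5 (-0.23 to -0.00) overlapped. Overlap alone does not show that such neighbours were alike. Mfap5 and Fbln5 (-0.31 to -0.25) did not overlap. Just inside the 2-fold limit stood Fbn1 at -0.86 and Ltbp2 at 0.82, and just outside it Ltbp1 at -1.05 and Emilin1 at 1.07.

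Levels were set side by side between genes as CPM per kilobase of the longest coding transcript in GENCODE M21. With vehicle, Fbln5 at 166 was highest, followed by Efemp2 at 151, Ltbp2 at 146 and Fbn1 at 108. Eln at 79.9, Emilin1 at 74.8, Fbn2 at 42.7 and Mfap5 at 36.9 were intermediate, and Ltbp1 at 17.9 and Efemp1 at 17.3 were lowest. The counting intervals of neighbours overlapped for Ltbp2 with Efemp2 and for Efemp1 with Ltbp1. With IL-17A, Ltbp2 at 258 led, followed by Emilin1 at 158, Efemp2 at 142 and Fbln5 at 137. Fbn1 stood at 59.4, Mfap5 at 34.0, Ltbp1 at 8.70, Fbn2 at 6.49, Efemp1 at 4.86 and Eln at 3.60, and no neighbouring intervals overlapped.

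Eln thus went from place 5 of 10 to place 10, and Emilin1 from place 6 to place 2. With all annotated exons merged, which makes Eln 8098 rather than 3853 bases long, Eln went from place 6 to place 10 and Emilin1 from place 5 to place 2, a choice made after seeing the data.

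Genes whose pair of levels lay nearest to those of Eln and Fbn2 were sought among 11781 protein-coding genes by the distance in log2 CPM over the 2 libraries. For Eln the nearest were Ccn5, Fhl1 and Osr1, at distances of 1.45, 1.71 and 1.75, with ratios of -2.43, -2.10 and -2.17, so none of the genes searched lay close to its levels. For Fbn2 they were Prss23, Ptn and Ccn3, at distances of 0.42, 0.51 and 0.62, with ratios of -2.40, -2.56 and -3.49. With 2 libraries such a likeness rests on a pair of values for each gene.

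Of the other elastic fibre genes on the lists used here, 42 of 49 were measured, with a median log2 ratio of -0.10. Of these, 5 were at least 2-fold higher and 5 at least 2-fold lower. Over all measured genes the shares were 5.19% higher and 3.69% lower, beside which the counts of each list below can be set. With so few genes in a list, a count of 0 or 1 lies near what these shares give. Of 13 further fibulins, latent TGF-beta binding proteins, emilins, multimerins and microfibril proteins, 9 were measured, 1 was higher and 0 were lower. The higher one was Hmcn2, a hemicentin, with 59 and 151 counts and a log2 ratio of 1.48 (interval 1.03 to 1.94). Hmcn1 stood at -0.65, Fbln2, the most abundant of them with 91471 and 64852 counts, at -0.38, and the microfibril protein Mfap4 at -0.33. The median was -0.27.

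Crosslinking enzymes lay within 2-fold in all 6 cases, 5 above 0, with a median of 0.30. Lox had 100460 and 104994 counts, a log2 ratio of 0.18. Its relative Loxl1, which acts on elastin, stood at -0.20, Loxl2 at 0.56 and the transglutaminase Tgm2 at 0.86. The ratio of each of the 6 enzymes was thus less than 2-fold, beside the 22.2-fold of Eln. The interval of Tgm2 (0.61 to 1.11 on the log2 scale) spans the limit.

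Genes of the ADAMTS and ADAMTSL family, several of whose proteins bind fibrillin, were below 0 in 8 of 9 cases, 4 of them at least 2-fold lower, with a median of -0.84. Adamts17, a protease, went from 41 to 9 counts, 4.19-fold lower (interval 2.01 to 9.81). Adamtsl1, Adamtsl4 and Adamtsl2 were 3.29-fold, 2.83-fold and 2.66-fold lower, from 254, 345 and 182 vehicle counts. The interval of Adamtsl2 (1.99 to 3.60) spans the 2-fold limit. These 4 genes were of low abundance, and Adamts10, the most abundant of the list with 2513 and 1817 counts, stood at -0.35. Among genes of latent TGF-beta, 1 of 5 was past 2-fold, the ligand Tgfb2 at -1.71 (interval -1.98 to -1.44), while Tgfb1 stood at 0.67, Tgfb3 at 0.09 and Lrrc32, a cell-surface anchor of latent TGF-beta, at -0.82.

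On the list of elastin-degrading and related proteases, 3 of the 8 measured genes were higher, 0 were lower and the median was 0.51. The gelatinase Mmp9 had 754 and 29063 counts, 41.9-fold higher, the macrophage elastase Mmp12 had 438 and 2125, 5.27-fold higher, and the gelatinase Mmp2 had 18249 and 45097, 2.69-fold higher. Of 6 markers of haematopoietic and myeloid cells, 5 were measured and 0 were past 2-fold. Their summed level was 177 CPM with vehicle and 249 with IL-17A, most of it Lyz2, and Cd3e was at 0. The part of such cells in the protease values was not tested. Mme, a fibroblast elastase also called neprilysin, stood at -0.72. Of proteoglycans and other binders, 1 of 5 measured was past 2-fold, Dcn at 2.62, while the large proteoglycan Vcan stood at -0.74.

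**Figure D4:**
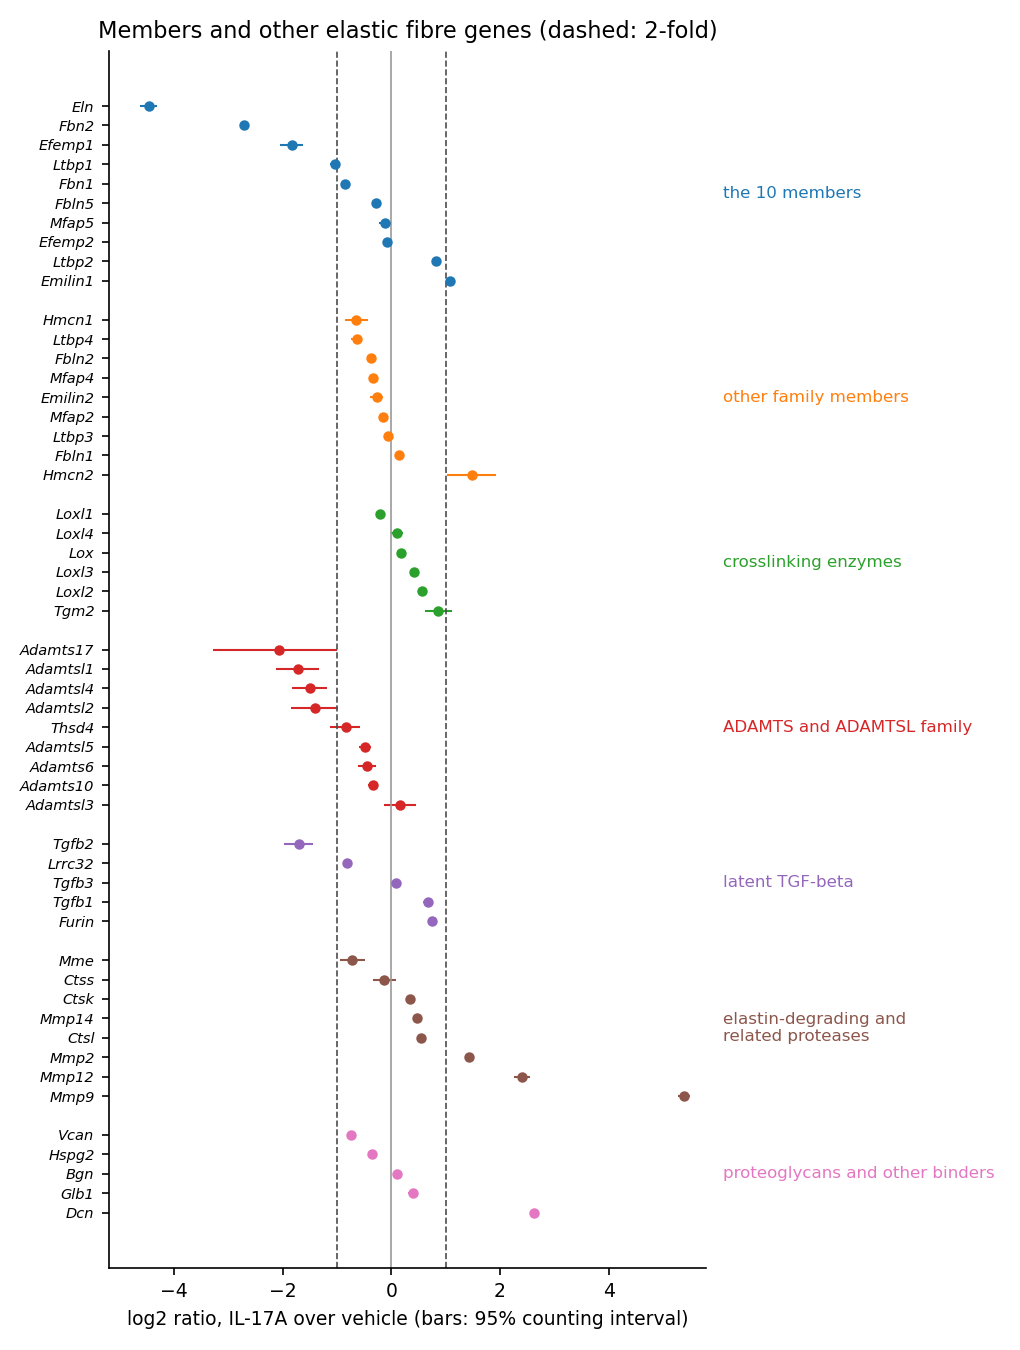
Log2 ratio of IL-17A over vehicle (x axis, 1 library per group, bars: 95% counting interval) for the 10 members and the 42 other measured elastic fibre genes, grouped by list, with dashed lines at 2-fold. The ratios of the crosslinking enzymes stay between the lines, those of 4 ADAMTS and ADAMTSL genes lie left of them, and Mmp9 lies farthest right at 5.39. Some bars cross a line, those of Tgm2 and Adamtsl2 among them.

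The labelled cell type was checked against marker genes. All 8 fibroblast markers were measured, with summed levels of 55449 CPM for vehicle and 40934 for IL-17A, and log2 ratios above 0 for 3 and below 0 for 5. Dcn was 6.15-fold higher, the other 7 lay within 2-fold, and the lowest log2 ratios were those of Col3a1 (-0.82), Col1a1 (-0.64) and Vim (-0.59). Pdgfra had 23237 and 20550 counts. Markers of smooth muscle and pericytes, cells that also make elastin, were lower with IL-17A: all 4 measured of 5 were below 0, 2 of them past 2-fold, and their sum was 275 and 114 CPM. Of these, Myh11 had 1101 and 135 counts and Cspg4 had 2908 and 1070, and none of the 5 was at 0. Their part in the lower Eln, Fbn2, Efemp1 and Ltbp1 was not tested, and in bulk RNA fewer cells of a type cannot be told apart from less RNA per cell. Summed markers of keratinocytes (2.20 and 3.17 CPM, Krt1 at 0), endothelial cells (4.96 and 4.69), melanocytes and Schwann cells (8.16 and 6.61) and adipocytes (1.40 and 0.478, Lep at 0) were low in both libraries. Of the 2 endothelial markers measured, Tek had 49 and 18 counts, 2.50-fold lower (interval 1.43 to 4.57), and Cdh5 had 33 and 47.

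Several members overlap another gene on the opposite strand, and the strand setting of the counting was not stated. Gm9913 shares 2442 bases with Fbn1 exons, 20.1% of their length, and had 31 and 42 counts. D030025P21Rik shares 764 bases with Ltbp2 and had 67 and 194 counts, and Mus81 shares 173 bases with Efemp2 and had 516 and 433. Eln shares 267 bases with Gm30003 and Fbn2 shares 129 with Gm26507. Neither name is among the gene rows counted, so reads of these could not be looked up.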

How the data were processed

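Libraries were made from total RNA with a stranded mRNA preparation, per the labels' protocols. The deposited values are raw read counts per gene symbol, 1 column per library, without normalization by the authors. STAR, featureCounts and the build mm10 are named in the submitters' processing notes, while versions, annotation and strand setting were not given in the sources used here.

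Library sizes were scaled with TMM over the whole table (edgeR 4.0.16, R 4.3.3). With 1 library per group edgeR and DESeq2 cannot test, so the ratio of scaled counts is given with an exact 95% Clopper-Pearson interval (scipy 1.17.1). The intervals cover counting error only and take the reads as independent. Without molecular identifiers, PCR copies are counted as separate reads, so the intervals may be too narrow even for counting error. The calculation was tested on simulated data. A count of 0 allows up to 3 counts, 0.120 CPM in the vehicle library and 0.130 in the other. The members and lists were chosen with earlier results of these data known. The text names all 10 members, every listed gene past 2-fold or up to 4 of a list, and the 3 genes nearest to Eln and Fbn2, and other genes were named after their values were seen. Other scalings, minimums and fold limits, and a prior count of 2, were tried. Coordinates and promoters came from RefSeq (GRCm38.p6), and lengths and 3' UTRs from GENCODE M21. Proteins were not used here.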

Additional observations from a re-analysis of the deposited data

How the results depend on the processing

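No paired analysis was possible because each group held 1 library. Under total-count, upper-quartile and RLE scaling and with a prior count of 2, all 40 values of the 10 members kept their sign and 0 crossed the 2-fold limit. The largest shift was 0.07 on the log2 scale, with total counts. Emilin1, the only member called higher, then stood at 1.01, barely past the limit. The median of the members was -0.64 with total-count and -0.61 with upper-quartile scaling. The members numbered 2 higher and 5 lower at 1.5-fold, with Ltbp2 and Fbn1 added, and 0 higher and 3 lower at 3-fold. The other elastic fibre genes were 8 higher and 11 lower at 1.5-fold, and 3 and 3 at 3-fold. With the minimum set to the summed counts of the least abundant member, chosen after seeing the data, 30 of these were tested and 0 were lower. All of them that were at least 2-fold lower in the main setting fell below that minimum. Over all genes, 1364 were higher and 1117 lower at 1.5-fold, and 340 and 219 at 3-fold. A minimum of 10 counts gave 1090 and 955, and no minimum, with a gene at 0 in a library set to 3 counts, gave 1347 and 1148. A minimum of 200 left 275 lower, and that of the least abundant member left 292 higher and 109 lower. Variation between cultures was not measured, and dose and time were not stated, so the values describe these 2 libraries. Ltbp1, at 2.06-fold with an interval that spans 2, is not separated from the limit by counting error alone.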
